A study of Mus musculus with 16 samples.

Results

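Replication-dependent histone genes were described here as the genes whose older mouse symbols start with Hist1h, Hist2h, Hist3h or Hist4h, matched to the gene identifiers of the tables through the mouse annotation. They numbered 67 of the 22375 genes in the tables, and 3 other annotated symbols of this form (Hist1h2aj, Hist2h3c1 and Hist3h2bb-ps) were not in the tables. By class there were 6 genes for the linker histone H1, 19 for H2A, 18 for H2B, 11 for H3 and 13 for H4.

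RNA was sequenced from mouse embryonic stem (ES) cells of a line with an intact Cfp1 gene and of a line without it, each untreated or exposed to doxorubicin, a drug that traps topoisomerase II on DNA and breaks it. These libraries come from a study of Cfp1, a subunit of the Set1 complex, and of histone H3 trimethylated at lysine 4. Total RNA depleted of ribosomal RNA was used, so transcripts with no poly(A) tail were kept. Each of the 4 groups has 2 biological replicates, sequenced in 2 runs each, for 16 samples.

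The groups were untreated WT cells (E14TG2a, strain 129/OLA), WT cells exposed to doxorubicin for 6 hours, untreated Cfp1−/− cells given the same strain in the labels, and Cfp1−/− cells exposed to doxorubicin for 6 hours. All cells grew on gelatin in serum with the cytokine LIF. The treatment protocol gives the dose as 1 μM, whereas the treatment label of the exposed samples gives 1 mM. Each genotype was represented by a single line, so the loss of Cfp1 and any other difference between the lines cannot be told apart.

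Replication-dependent histone genes supply the histones that wrap newly copied DNA, and they lie in clusters that hold genes of several classes. Their transcripts build up in S phase, end in a short stem-loop in place of a poly(A) tail, and are known to be degraded rapidly when DNA synthesis stops. Core histones H2A, H2B, H3 and H4 form the nucleosome, and H1 binds the DNA between nucleosomes.

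The counts of a biological replicate, summed over its technical replicates, came to 29422711 and 24158994 for WT cells without the drug, and with the drug these totals were 14880589 and 18551086. In Cfp1−/− cells they came to 23383421 and 25308913 without and to 17866427 and 18458036 with doxorubicin. Levels are given as the authors' normalized counts, which are summed counts divided by a size factor for each biological replicate, and all groups have n = 2.

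Cxxc1, the gene that encodes Cfp1, had 1199 and 1164 normalized counts in untreated WT cells and 807 and 876 in treated WT cells. It had 3.71 and 2.54 in untreated and 5.11 and 0.964 in treated Cfp1−/− cells. Every library thus matched its genotype label, with the Cfp1−/− libraries near 0. The ES cell markers Pou5f1, Sox2, Nanog, Zfp42, Esrrb and Sall4 were all detected, with a summed level from 16586 to 66349 normalized counts in the 8 biological replicates.

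Technical replicates stood apart in 2 of the 8 biological replicates, both of treated cells. In the other 6 the total of the second technical replicate was between 0.76 and 0.768 times that of the first. In replicate 1 of treated WT cells the median ratio was 0.689 over genes with 1 exon and 0.538 over genes with more than 16 exons. In replicate 1 of treated Cfp1−/− cells these medians were 0.682 and 0.515. Of the 67 histone genes 61 have 1 exon. The second technical replicates of these libraries held a larger share of histone counts, at 0.253% against 0.205% in WT and 0.203% against 0.144% in Cfp1−/− cells. In the Cfp1−/− library, 635 of the 11653 genes that reached 50 counts in run 1 were at 0 in the other run, and all 635 lie on chromosomes 19, X and Y, where no histone gene described here lies. The affected runs raise the histone share of treated cells, and several values below are also given without them. Without both runs the mean histone share was 0.239% in treated WT and 0.163% in treated Cfp1−/− cells. In treated Cfp1−/− cells the mean H1 share was 0.0302% in place of 0.0321%, and that of H2B 0.0491% in place of 0.0519%.

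Together the 67 genes took up 0.652% and 0.665% of all counts in the untreated WT replicates (95% Wilson intervals 0.649% to 0.655% and 0.662% to 0.668%). In treated WT cells the share was 0.223% and 0.273% (intervals 0.22% to 0.225% and 0.27% to 0.275%). Treated WT cells thus lay below untreated ones in both replicates, and the mean share was 2.66 times lower. In Cfp1−/− cells the share was 0.388% and 0.476% without doxorubicin (intervals 0.385% to 0.39% and 0.474% to 0.479%). It was 0.164% and 0.181% with doxorubicin (intervals 0.162% to 0.166% and 0.179% to 0.183%), a mean that was 2.5 times lower. All 4 Cfp1−/− shares lay below those of WT cells under the same treatment, and the gap between replicates exceeded counting error, which is all the intervals cover. In these bulk libraries fewer cells in S phase and less histone RNA per cell cannot be told apart.

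By class, H2B genes held 37.4% and 35% of the histone counts in untreated WT cells, H4 genes 24.1% and 25.2%, H1 genes 23.8% in both replicates, H2A genes 10.7% and 11.6%, and H3 genes 4.11% and 4.38%. With doxorubicin the H4 part was 30.5% and 32.7% in WT cells. In Cfp1−/− cells the H4 part was 27.6% and 27.4% without and 36.5% and 40.5% with the drug. The H4 part was therefore higher in every treated replicate than in any untreated replicate, in both lines. The H1 part went from 23.8% to 21.1% and 20% in WT cells and from 25.6% in both replicates to 19.4% and 17.8% in Cfp1−/− cells. As shares of all counts, H1 was 3.09 times lower in treated than in untreated WT cells and H4 was 2.06 times lower, with H2A (3.04), H2B (2.87) and H3 (2.52) between them. The same ratios in Cfp1−/− cells were 3.45 for H1 and 1.78 for H4. Shares weigh each gene by its counts, and Hist1h4d was the most counted H4 gene in untreated WT cells. Its log2 fold change with doxorubicin was -1.14 in WT and -0.93 in Cfp1−/− cells, against medians over H4 genes of -1.66 and -1.23. The medians over H3 genes were -1.61 and -1.65, so in WT cells H4 and H3 genes were close by this measure. These shares are descriptions without a test.

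**Figure D1:**
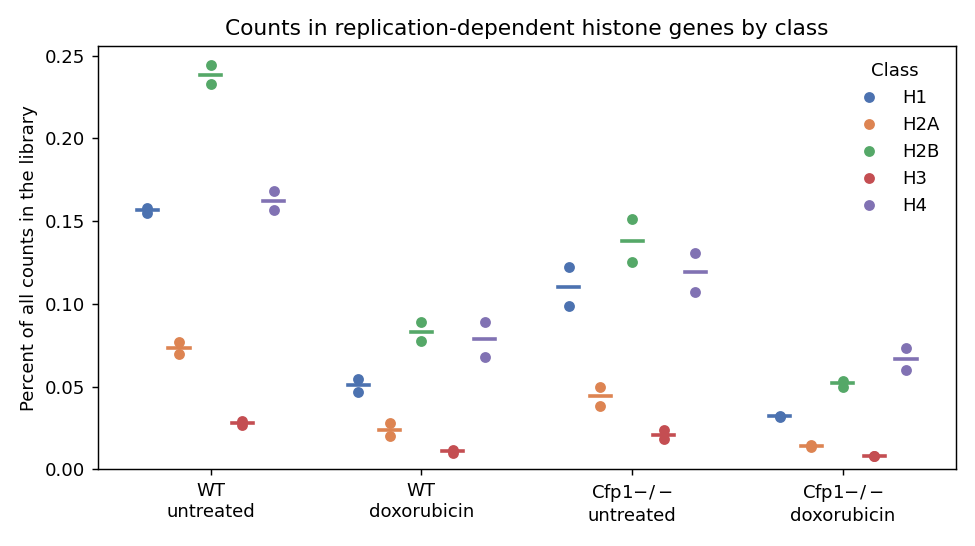
Percent of all counts in the genes of each histone class (vertical axis) in the 4 groups (horizontal axis), with a point for each of 2 biological replicates and a bar at their mean. In WT cells the share of H2B genes lies at 0.244% and 0.233% without and 0.0773% and 0.0889% with doxorubicin, and every class is lower in treated than in untreated cells of the same line.

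A small number of genes carried most of these counts. Hist2h2bb alone held 24.8% and 22.7% of the histone counts in the untreated WT replicates, and with Hist1h4d, Hist1h1a, Hist1h1d and Hist1h1b, a further H1 gene, it held 53.6% and 52.8%. Per kb of exon, the highest mean level of each class in untreated WT cells was 49300 normalized counts for Hist1h4d, 25900 for Hist2h2bb, 18200 for Hist1h1a, 8050 for Hist1h2al and 3410 for the H3 gene Hist1h3b. The median level per kb ran from 622 for H3 to 4160 for H1, and the lowest genes of H2A and H2B lay at 0 and 2.66. Levels per kb of genes with long annotated ends, such as the 3821 bases of Hist1h1d against a median of 530 over all 67, are lower than they would be over the coding part alone.

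Reads of 75 bases cannot place every histone gene. Of the 67 genes, 40 had at least 50% of their 75-base windows in the genome once, 8 had every window unique, and 6 had none. The 6 are the identical pairs Hist1h2bq with Hist1h2br, Hist1h2ao with Hist1h2ap, and Hist2h2aa1 with Hist2h2aa2. The median share of unique windows was 98.5% for H1, 62.6% for H4, 51.6% for H2B, 47.4% for H2A and 41.4% for H3. Counts of the 27 genes under 50% are uncertain for single genes. The paper describes its counts as those of unambiguous reads, so reads shared by near-identical copies could be dropped from each copy. Hist3h2a overlaps Trim17 on the same strand, and its counts are uncertain for that reason.

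The first comparison asked how histone transcripts respond to doxorubicin in WT cells. Of the 67 genes, 65 had enough counts to be tested (Hist1h2ap and Hist1h2br did not). With edgeR's quasi-likelihood test at an adjusted p under 0.05 over 15758 genes, 58 of the 65 fell, where 21.8% of all tested genes fell. It gave 0 higher, where 26.5% of all tested genes rose. At an unadjusted p under 0.05, 0 were higher, against 30.0% of all tested genes. DESeq2's Wald test, over all 67, gave 59 lower and 0 higher, against 16.3% and 16.9% of all 22375 genes. The median log2 fold change was -1.71 over the 65 genes and 0.06 over all tested genes, which is a median fall of 3.26-fold. In 62 of the 65 genes both treated replicates lay below both untreated replicates, as in 36.0% of all tested genes. In 0 they lay above, as in 37.5%. Chance alone gives 16.7% in a given direction if replicate numbers do not pair the libraries. Departures from group means did correlate between these groups (r = 0.575). At the study's limits of a 2.5-fold change and a mean of 200 normalized counts, 44 fell and 0 rose, against 2.80% and 5.10% of all tested genes.

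In Cfp1−/− cells 57 of the 65 genes fell, where 21.0% of all tested genes fell. The test gave 0 higher, where 27.8% of all tested genes rose, and 0 at an unadjusted p under 0.05, where 30.9% did. DESeq2's Wald test, over 67 histone genes, gave 56 lower and 0 higher, against 15.9% and 17.7% of all 22375 genes. The median log2 fold change was -1.62, against 0.01 over all tested genes, and it was -1.74 without the second technical replicates of both affected libraries. At the study's limits 32 fell and 0 rose, against 2.23% and 5.38% of all tested genes. Both treated replicates lay below both untreated ones in 63 of the 65 genes, against 38.7% of all tested genes, and above them in 0, against 38.8%. WT and Cfp1−/− responses were measured in separate libraries and are set side by side in the plot of single genes.

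**Figure D2:**
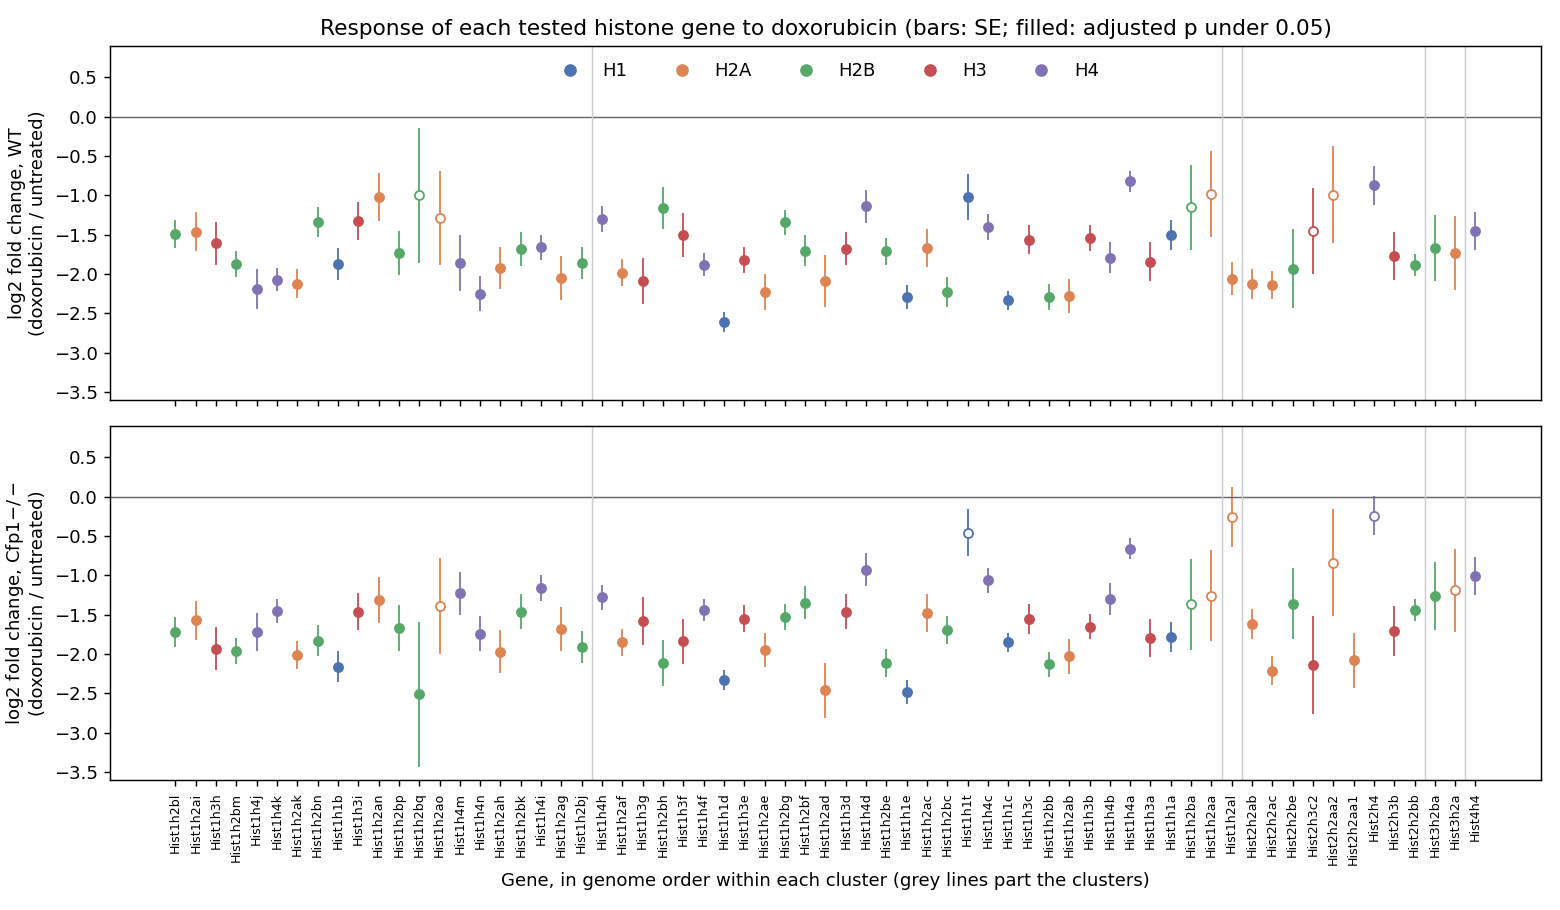
Log2 fold change with doxorubicin (vertical axis) in WT cells (upper) and Cfp1−/− cells (lower) for each tested histone gene in genome order within its cluster (horizontal axis), with n = 2 per group. Bars are standard errors, filled points have an adjusted p under 0.05, Hist2h2aa1 has no point for WT cells because its counts there were 0, and the other points lie between -2.61 and -0.24.

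The linker histone H1 had the furthest median response of the classes, at -2.08 on the log2 scale in WT and -2.01 in Cfp1−/− cells. Hist1h1d (ENSMUSG00000052565, chr13:23646901-23650721, build NCBIM37) encodes the somatic variant H1.3 and had 8582 and 8154 normalized counts in untreated WT, 1289 and 1372 in treated WT, 4935 and 5312 in untreated Cfp1−/− and 1048 and 937 in treated Cfp1−/− cells. Treated libraries were low in both lines with no overlap, and untreated Cfp1−/− cells lay between untreated and treated WT cells. On the log2 scale its fold change was -2.61 in WT cells (SE 0.13, adjusted p = 1.88e-06 in edgeR's quasi-likelihood test), the lowest of all 65 genes, and -2.33 in Cfp1−/− cells (SE 0.13, adjusted p = 3.92e-06).

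Hist1h1c encodes the variant H1.2 and had 7003 and 6806 normalized counts in untreated WT, 1328 and 1338 in treated WT, 6032 and 5961 in untreated Cfp1−/− and 1671 and 1550 in treated Cfp1−/− cells. The replicates of each group were close, and treated Cfp1−/− cells were above treated WT cells whereas untreated ones were below. In edgeR's quasi-likelihood test its log2 fold change was -2.33 in WT (SE 0.12, adjusted p = 2.28e-06) and -1.85 in Cfp1−/− cells (SE 0.12, adjusted p = 6.37e-06). Hist1h1e, for H1.4, had 2653 and 3189 normalized counts in untreated and 593 and 562 in treated WT cells, and 1743 and 1792 in untreated and 328 and 285 in treated Cfp1−/− cells. No treated library reached an untreated one, and its log2 fold changes were -2.29 (SE 0.15) and -2.48 (SE 0.15). Hist1h1a, for H1.1 and the most abundant H1 gene per kb in untreated WT cells, had log2 fold changes of -1.50 (SE 0.19) in WT and -1.78 (SE 0.19) in Cfp1−/− cells.

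Hist1h1t encodes the testis variant of H1. It had 171 and 206 normalized counts in untreated WT, 76.0 and 104 in treated WT, 79.7 and 105 in untreated Cfp1−/− and 56.2 and 74.2 in treated Cfp1−/− cells. Its groups did not overlap within either line, but in Cfp1−/− cells the gap was smaller than the spread of the replicates. The log2 fold change was -1.02 in WT cells (SE 0.29, adjusted p = 0.0165 in edgeR's quasi-likelihood test) and -0.46 in Cfp1−/− cells, where it did not pass (SE 0.30, adjusted p = 0.232) and ran from -0.67 to -0.26 with a replicate left out. The WT call was lost without replicate 2 of untreated WT cells (-0.89, adjusted p = 0.0729 in edgeR's quasi-likelihood test) and without replicate 1 of treated WT cells (-0.82, adjusted p = 0.0943), and under scaling by total counts (-0.70, adjusted p = 0.0777). The difference of its responses was 0.56 and did not pass edgeR's quasi-likelihood test (adjusted p = 0.691).

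Among H2A genes the median response was -1.95 in WT and -1.65 in Cfp1−/− cells, with 14 and 13 of 18 tested genes lower. Hist1h2ab, a core H2A gene, had 865 and 1017 normalized counts in untreated WT, 152 and 223 in treated WT, 535 and 586 in untreated Cfp1−/− and 144 and 122 in treated Cfp1−/− cells. Treated libraries were lower in both lines, and treated Cfp1−/− cells lay just below treated WT cells. Its log2 fold changes were -2.28 (SE 0.22) and -2.03 (SE 0.22). For Hist1h2ad, also core H2A with 34.5% unique windows, they were -2.09 (SE 0.33) in WT and -2.46 (SE 0.35) in Cfp1−/− cells.

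In the Hist2 cluster Hist2h2ac had 4166 and 4077 normalized counts in untreated WT, 769 and 1043 in treated WT, 2418 and 3092 in untreated Cfp1−/− and 597 and 560 in treated Cfp1−/− cells. Every treated library was below every untreated one, in both lines. For Hist2h2ac the log2 fold changes were -2.14 (SE 0.18) and -2.21 (SE 0.18). The log2 fold changes of Hist2h2ab were -2.13 (SE 0.19) in WT and -1.62 (SE 0.19) in Cfp1−/− cells. Hist3h2a, which lies in the small Hist3 cluster, had log2 fold changes of -1.73 (SE 0.47, adjusted p = 0.0133 in edgeR's quasi-likelihood test) in WT and -1.19 in Cfp1−/− cells, where it did not pass (SE 0.53, adjusted p = 0.088) except with the replicate number as a block (-1.23, adjusted p = 0.0316) or with only the groups compared in the fit (-1.19, adjusted p = 0.0377). Its WT call was lost without replicate 2 of untreated WT cells (-1.19) and without replicate 1 of treated WT cells (-1.27).

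Hist1h2aa and Hist1h2ba are neighbours at the end of the distal Hist1 cluster that encode germ cell variants of H2A and H2B. Hist1h2aa had 514 and 1049 normalized counts in untreated WT, 169 and 595 in treated WT, 227 and 442 in untreated Cfp1−/− and 102 and 170 in treated Cfp1−/− cells. Replicate 2 was higher than replicate 1 in all 4 groups, and in WT cells replicate 2 of the treated cells lay above replicate 1 of the untreated cells. Hist1h2ba had 321 and 636 normalized counts in untreated WT, 105 and 308 in treated WT, 89.0 and 221 in untreated Cfp1−/− and 49.0 and 67.5 in treated Cfp1−/− cells. The same replicate was high throughout. Neither gene passed edgeR's quasi-likelihood test in WT cells (log2 fold changes -0.98, SE 0.55, adjusted p = 0.172, and -1.15, SE 0.54, adjusted p = 0.105). Hist1h2ba did pass DESeq2's Wald test, in WT (-1.21, adjusted p = 0.0406) and in Cfp1−/− cells (-1.41, adjusted p = 0.0185), and edgeR's quasi-likelihood test with no filter on low counts (adjusted p = 0.0344 and 0.0196). In Cfp1−/− cells Hist1h2aa passed edgeR's quasi-likelihood test with no filter (adjusted p = 0.0251), and both genes passed it with only the groups compared in the fit (adjusted p = 0.0156 and 0.0233). With the replicate number as a block they did, at -1.10 (adjusted p = 0.0013 in edgeR's quasi-likelihood test) and -1.24 (adjusted p = 0.000901). In Cfp1−/− cells the values were -1.26 (SE 0.58) and -1.37 (SE 0.58), which passed with the block at -1.23 (adjusted p = 0.00091 in edgeR's quasi-likelihood test) and -1.28 (adjusted p = 0.00165). Single libraries also moved these values. In WT cells Hist1h2aa ran from -2.17, without replicate 2 of treated cells, to -0.35, without replicate 1 of them, and Hist1h2ba from -2.15 to -0.59 with the same libraries left out, and of these both passed without replicate 2 alone. Without replicate 2 of untreated Cfp1−/− cells the Cfp1−/− values were -0.71 and -0.58. In Cfp1−/− cells both passed when either treated WT replicate was left out of the fit, at -1.27 and -1.38, and Hist1h2ba also without replicate 1 of untreated WT cells (-1.42) and without replicate 1 of untreated Cfp1−/− cells (-1.89).

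Germ cell markers were also present. The sum of Ddx4, Dazl, Stra8 and Sycp3 ran from 1934 to 4311 normalized counts over the 8 biological replicates, and no marker was at 0 in every library. Sycp3 was the most abundant in the WT replicates, and Dazl in the Cfp1−/− replicates. Of the 4 markers, 1 was lower in treated WT cells (Sycp3) and 0 changed in treated Cfp1−/− cells by edgeR's quasi-likelihood test, where 21.8% and 21.0% of all tested genes were lower and 26.5% and 27.8% higher. Between the lines Sycp3 was lower (-3.50 without and -2.95 with doxorubicin) and Dazl higher (2.45 and 2.28) in Cfp1−/− cells, where 16.1% and 10.8% of all tested genes were lower and 17.9% and 15.1% higher. Their part in the levels of the germ cell histone variants was not tested.

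H2B genes had median responses of -1.70 in WT and -1.69 in Cfp1−/− cells, with 15 and 16 of 17 tested genes lower. Hist2h2bb (ENSMUSG00000050936, chr3:96073644-96082924) is the most counted histone gene in untreated WT cells and has a second annotated exon far from its coding part. It had 40396 and 38022 normalized counts in untreated WT, 9966 and 10590 in treated WT, 13442 and 16578 in untreated Cfp1−/− and 5215 and 5500 in treated Cfp1−/− cells. The 4 groups were apart from each other, with untreated WT cells far above the rest. Its log2 fold change with doxorubicin was -1.89 in WT (SE 0.14, adjusted p = 9.91e-06 in edgeR's quasi-likelihood test) and -1.44 in Cfp1−/− cells (SE 0.14, adjusted p = 3.9e-05).

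Hist1h2bb, a core H2B gene, had 4540 and 4087 normalized counts in untreated WT, 760 and 949 in treated WT, 2931 and 3257 in untreated Cfp1−/− and 729 and 640 in treated Cfp1−/− cells. Treated libraries of both lines were at a similar low level. On the log2 scale Hist1h2bb had fold changes of -2.29 (SE 0.16) and -2.13 (SE 0.16). The lowest fitted response in Cfp1−/− cells was that of Hist1h2bq, at -2.51 (SE 0.92, adjusted p = 0.0451 in edgeR's quasi-likelihood test), but this gene has no unique window and had only 19 and 22 raw counts in untreated and 4 and 2 in treated Cfp1−/− cells. Its call was lost in DESeq2's Wald test (adjusted p = 0.0808) and without any of the 4 Cfp1−/− replicates, where its value ran from -3.13 to -2.07, and it was also lost without the affected runs (-2.22), with total counts as the scale (-2.31) and with first technical replicates alone (-2.27).

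The other H2B genes outside Hist1 were low. Hist2h2be had 34 and 30 raw counts in untreated and 4 and 9 in treated WT cells, and 35 and 36 in untreated and 8 and 16 in treated Cfp1−/− cells. Its log2 fold changes were -1.93 (SE 0.50) and -1.36 (SE 0.45), of which the second did not pass DESeq2's Wald test (adjusted p = 0.0977). The WT call was lost without replicate 1 of treated WT cells (-1.61), and the Cfp1−/− call without either untreated Cfp1−/− replicate (-1.32 and -1.42) and without replicate 1 of the treated ones (-1.0), with total counts as the scale (-1.14) and with first technical replicates alone (-1.23). Hist3h2ba had 274 and 345 normalized counts in untreated WT, 68.1 and 119 in treated WT, 69.5 and 169 in untreated Cfp1−/− and 53.1 and 43.4 in treated Cfp1−/− cells. The groups did not overlap within a line, but its untreated Cfp1−/− replicates were far apart. With doxorubicin, the log2 fold changes of Hist3h2ba were -1.67 (SE 0.42) and -1.26 (SE 0.43), and without replicate 2 of untreated Cfp1−/− cells the second was -0.50. That call was also lost without replicate 1 (-1.44) or 2 (-1.12) of treated Cfp1−/− cells, with total counts as the scale (-1.06) and with first technical replicates alone (-1.09), and the WT call without replicate 1 of treated WT cells (-1.33).

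H3 genes had median responses of -1.61 in WT and -1.65 in Cfp1−/− cells, and 10 and 11 of 11 genes lower. Hist1h3b, the most abundant per kb in untreated WT cells, had 2110 and 2119 normalized counts in untreated WT, 675 and 734 in treated WT, 1041 and 1295 in untreated Cfp1−/− and 394 and 327 in treated Cfp1−/− cells. Each group lay apart from the other 3. For Hist1h3b the log2 fold changes were -1.54 (SE 0.16) in WT and -1.65 (SE 0.16) in Cfp1−/− cells. In the Hist2 cluster the H3 gene Hist2h3b had log2 fold changes of -1.77 (SE 0.31) and -1.71 (SE 0.32). For its neighbour Hist2h3c2, with at most 30 raw counts in a library, they were -1.45 (SE 0.55) and -2.14 (SE 0.62). The WT value missed the threshold (adjusted p = 0.0533 in edgeR's quasi-likelihood test) and passed it with the replicate block (-1.52, adjusted p = 0.0278) and with DESeq2 size factors (-1.49, adjusted p = 0.0487). The Cfp1−/− call was lost without replicate 2 of untreated (-1.66) and without replicate 1 of treated Cfp1−/− cells (-1.63), and with first technical replicates alone (-2.07).

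H4 genes fell least in Cfp1−/− cells, with a median of -1.23 against -1.66 in WT cells, and 13 of 13 passed in WT and 12 in Cfp1−/− cells. Hist1h4d, the histone gene with the highest level per kb, had 18094 and 20663 normalized counts in untreated WT, 6800 and 10177 in treated WT, 12540 and 14971 in untreated Cfp1−/− and 6104 and 7945 in treated Cfp1−/− cells. Treated libraries were below untreated ones of the same line, and the treated groups of the lines overlapped. The log2 fold change of the gene was -1.14 in WT (SE 0.21, adjusted p = 0.00147 in edgeR's quasi-likelihood test) and -0.93 in Cfp1−/− cells (SE 0.21, adjusted p = 0.00463).

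Hist1h4a encodes the same H4 protein and fell less, from 2128 and 2045 to 1214 and 1073 normalized counts in WT and from 1165 and 1279 to 773 and 724 in Cfp1−/− cells. Treated WT cells overlapped untreated Cfp1−/− cells. Its log2 fold changes were -0.82 (SE 0.13) and -0.66 (SE 0.13). Hist2h4 had 757 and 1005 normalized counts in untreated WT, 431 and 503 in treated WT, 373 and 465 in untreated Cfp1−/− and 264 and 425 in treated Cfp1−/− cells. The WT groups were apart, whereas treated and untreated Cfp1−/− cells overlapped. On the log2 scale its fold change was -0.87 in WT (SE 0.25, adjusted p = 0.0162 in edgeR's quasi-likelihood test) and -0.24 in Cfp1−/− cells (SE 0.25, adjusted p = 0.456). The WT call was lost without replicate 2 of untreated WT cells (-0.67), without replicate 1 of treated WT cells (-0.77) and under scaling by total counts (-0.55), and without replicate 1 of treated Cfp1−/− cells the Cfp1−/− value was 0.04, and without replicate 2 it was -0.62. The difference of its responses was 0.63, which did not pass edgeR's quasi-likelihood test (adjusted p = 0.573).

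By position, the 67 genes fall into 6 segments split at gaps of over 1 Mb. These are the proximal Hist1 cluster on chromosome 13 from 21.81 to 22.14 Mb (23 genes), the distal Hist1 cluster from 23.62 to 24.03 Mb (31 genes), Hist1h2al alone at chr13:51298057-51298434, the Hist2 cluster on chromosome 3 from 96.02 to 96.08 Mb (9 genes), the Hist3 pair on chromosome 11, and Hist4h4 alone on chromosome 6. The median response in WT cells was -1.73 for proximal and -1.70 for distal Hist1 genes, -1.77 for Hist2 and -1.70 for Hist3. In Cfp1−/− cells these medians were -1.72, -1.58, -1.62 and -1.22. The lone genes Hist1h2al and Hist4h4 had log2 fold changes of -2.06 and -1.45 in WT and -0.26 and -1.01 in Cfp1−/− cells. By class the medians in WT cells ran from -2.08 for H1 to -1.61 for H3. Without both affected runs H4 fell least instead, at -1.59 with H3 at -1.64. Over only genes with at least 50% unique windows H4 was also last, at -1.43 with H3 at -1.68.

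Whether the response differs between the lines was tested as an interaction, the Cfp1−/− response minus the WT response. Of the 65 genes, 0 passed edgeR's quasi-likelihood test in either direction, where 0.121% of all tested genes were lower and 0.114% higher. At an unadjusted p under 0.05 there were 1 lower and 4 higher, or 7.69% of the 65, against 10.6% of all tested genes. DESeq2's Wald test gave 0 lower and 1 higher, which was Hist1h2al, against 0.541% and 0.425% of all genes. The median difference was 0.15 on the log2 scale, against 0 over all tested genes, and ran from -0.02 to 0.34 when each biological replicate was left out in turn. It was 0.10 without both affected runs and 0.08 without the Cfp1−/− run alone, and it was -0.02 without replicate 1 of treated WT cells and without replicate 1 of untreated Cfp1−/− cells. The H1, H2A, H2B and H3 medians of the difference were 0.04, 0.12, -0.04 and 0.01. For the 13 H4 genes the difference lay from 0.03 to 0.63 with a median of 0.47. All 13 were above 0, as were 40 of the 65 histone genes, and the share over all tested genes was not counted. The 13 genes share libraries, and some share windows, so they are not independent of each other. This count was not among the planned results. All 13 were also above 0 with the replicate block, where the median was 0.49. With total counts as the scale 12 were, and the median was 0.37. With a replicate left out 12 or 13 were. The H4 median was lowest without replicate 1 of treated WT cells, at 0.26, and highest without replicate 2, at 0.66, and no H4 gene passed the test in any of these fits.

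After Hist1h2al, the smallest p values of the difference were those of Hist1h4k and Hist1h1c, with differences of 0.62 (SE 0.20, adjusted p = 0.31 in edgeR's quasi-likelihood test) and 0.47 (SE 0.16, adjusted p = 0.338). Hist1h4k, an H4 gene with 31.9% unique windows, had 3172 and 3126 normalized counts in untreated WT, 728 and 729 in treated WT, 1477 and 1853 in untreated Cfp1−/− and 559 and 627 in treated Cfp1−/− cells. The untreated lines were further apart than the treated ones.

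Untreated Cfp1−/− cells were compared with untreated WT cells to see what the lines differ in before damage. This comparison and those with doxorubicin share libraries. Of the 65 genes, 35 were lower in Cfp1−/− cells, where 16.1% of all tested genes were, and 3 were higher, where 17.9% were. DESeq2's Wald test, over 67 histone genes, gave 36 lower and 3 higher, against 12.4% and 11.7% of all 22375 genes. The median log2 fold change was -0.64, against 0.01 over all tested genes. The gene at 0 in WT cells lies above this median at its fitted value and at its bound, so its choice could not move it. The 35 became 19 without replicate 2 of untreated WT cells, 16 without replicate 1 of untreated Cfp1−/− cells and 22 with total counts as the scale, where the median of all tested genes was itself 0.20. In these fits the share of all tested genes called lower was less too, at 9.04%, 7.67% and 10.2%. By class the medians were -0.81 for H1, -0.74 for H4, -0.65 for H2A, -0.53 for H2B and -0.48 for H3. Both Cfp1−/− replicates lay below both WT replicates in 53 of the 65 genes, against 35.7% of all tested genes, and above them in 7, against 34.2%.

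With doxorubicin, 25 genes were lower in Cfp1−/− than in WT cells, where 10.8% of all tested genes were, and 4 were higher, where 15.1% were. The median log2 fold change was -0.58, against 0.02 over all tested genes, and the bound could not move it here either. The median ran from -0.73, without replicate 1 of treated WT cells, to -0.35, without replicate 2 of them. The 25 became 14 without replicate 2 of treated WT cells and 14 without either replicate of treated Cfp1−/− cells, and the share of all tested genes called lower was then 5.54%, 5.01% and 4.34%. Without replicate 1 of treated WT cells or replicate 1 of treated Cfp1−/− cells fewer histone genes were called higher, and fewer of all tested genes too. Both Cfp1−/− replicates were below both WT replicates in 45 of the 65 genes, against 31.9% of all tested genes, and above them in 7, against 33.1%.

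The lowest log2 fold change between the lines was that of Hist1h2al (ENSMUSG00000091383), the H2A gene that lies alone on chromosome 13. It had 3183 and 2905 normalized counts in untreated WT, 696 and 720 in treated WT, 16.7 and 17.8 in untreated Cfp1−/− and 20.4 and 7.71 in treated Cfp1−/− cells. All Cfp1−/− libraries were far below all WT libraries, with 18, 21, 20 and 8 raw counts. Its log2 fold change between the untreated lines was -7.43 (SE 0.29, adjusted p = 2.92e-06 in edgeR's quasi-likelihood test), and it was -5.63 (SE 0.29, adjusted p = 1.47e-05) with doxorubicin. Its share of unique windows was 47.4%, and 154 of its 304 windows also occur in Hist2h2aa1 and its identical copy. The summed normalized counts of Hist1h2al and Hist2h2aa1 were 3183 and 2905 in untreated WT and 208 and 168 in untreated Cfp1−/− cells, and with doxorubicin they were 696 and 720 in WT and 55.2 and 51.1 in Cfp1−/− cells, so the sum was lower in Cfp1−/− cells too.

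In WT cells Hist1h2al fell with doxorubicin by 2.06 on the log2 scale (SE 0.21, adjusted p = 5.49e-05 in edgeR's quasi-likelihood test). In Cfp1−/− cells its log2 fold change was -0.26 (SE 0.38, adjusted p = 0.602), which ran from -1.13 to 0.29 with each replicate left out and was -0.54 without the affected runs. The difference of the responses was 1.80 (SE 0.45, adjusted p = 0.193 in edgeR's quasi-likelihood test and 0.00864 in DESeq2's Wald test), and ran from 0.94 to 2.35 with each replicate left out, and was 1.57 without the affected runs. Its call therefore depended on the tool, and it rests on 18 and 21 against 20 and 8 counts.

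Next in order between the untreated lines were Hist1h2bf and Hist4h4. Hist1h2bf, a core H2B gene with 41.1% unique windows, had 871 and 943 normalized counts in untreated WT, 255 and 283 in treated WT, 185 and 239 in untreated Cfp1−/− and 70.5 and 90.6 in treated Cfp1−/− cells. Untreated Cfp1−/− cells were even below treated WT cells. Its log2 fold change between the untreated lines was -2.07 (SE 0.20, adjusted p = 0.000183 in edgeR's quasi-likelihood test). Hist4h4 (chr6:136752589-136752900), a lone H4 gene with every window unique, had 1683 and 1877 normalized counts in untreated WT, 516 and 744 in treated WT, 336 and 525 in untreated Cfp1−/− and 216 and 200 in treated Cfp1−/− cells. Untreated Cfp1−/− and treated WT cells overlapped, and the other groups were apart. The log2 fold change of the gene was -2.02 between the untreated lines (SE 0.24, adjusted p = 0.00041 in edgeR's quasi-likelihood test), and with doxorubicin -1.45 (SE 0.24) in WT and -1.01 (SE 0.24) in Cfp1−/− cells. The Cfp1−/− call was lost without replicate 2 of untreated Cfp1−/− cells (-0.67) and without replicate 2 of treated Cfp1−/− cells (-0.95).

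Between the treated lines, Hist1h2ba and Hist1h2bh followed Hist1h2al, with log2 fold changes of -1.81 (SE 0.58, adjusted p = 0.0472 in edgeR's quasi-likelihood test) and -1.72 (SE 0.29, adjusted p = 0.00325). The value of Hist1h2ba was -0.82 without replicate 2 of treated WT cells, and it also lost its call without either replicate of treated Cfp1−/− cells (-1.61 and -2.05), with total counts as the scale (-1.71) and with first technical replicates alone (-1.72). Hist1h2bh had 290 and 376 normalized counts in treated WT and 79.7 and 119 in treated Cfp1−/− cells. All treated Cfp1−/− values were below the WT ones.

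Of the 4 genes higher in Cfp1−/− cells, 3 had few windows of their own, and Hist1h4j had 53.8% unique windows. Hist2h2aa1 had 0 counts in all 4 WT replicates and 206 and 178 raw counts in untreated and 34 and 45 in treated Cfp1−/− cells. Against a floor of 3 counts per library it was at least 60.2-fold higher in untreated and at least 11-fold higher in treated Cfp1−/− cells. None of its windows is unique, since Hist2h2aa2 holds all of them. Hist2h2aa2 itself had 17.8 and 19.8 normalized counts in untreated WT and 11.1 and 11 in untreated Cfp1−/− cells, and 2.62 and 14.8 in treated WT and 6.13 and 5.78 in treated Cfp1−/− cells. The sum of the pair was 17.8 and 19.8 in untreated WT and 202 and 161 in untreated Cfp1−/− cells, and 2.62 and 14.8 in treated WT and 40.9 and 49.2 in treated Cfp1−/− cells, so it was higher in Cfp1−/− cells. Within Cfp1−/− cells Hist2h2aa1 fell with doxorubicin (log2 fold change -2.08, SE 0.35, adjusted p = 0.00192 in edgeR's quasi-likelihood test), whereas Hist2h2aa2 passed in neither line, with log2 fold changes of -0.99 (SE 0.62) in WT and -0.84 (SE 0.68) in Cfp1−/− cells. The WT value of Hist2h2aa2 was -2.75 and passed without replicate 2 of treated WT cells, and was -0.30 without replicate 1 of them.

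Hist1h4m, an H4 gene with 11% unique windows, had 39.1 and 35.4 normalized counts in untreated WT, 7.86 and 11.6 in treated WT, 227 and 284 in untreated Cfp1−/− and 114 and 97.4 in treated Cfp1−/− cells. Every Cfp1−/− library was above every WT library. Its log2 fold change between the lines was 2.80 (SE 0.29, adjusted p = 0.000215 in edgeR's quasi-likelihood test) without and 3.43 (SE 0.34, adjusted p = 0.000345) with doxorubicin. Summed with Hist1h4n, which shares 292 of its 328 windows, the level was 1240 and 1574 in untreated WT and 883 and 1041 in untreated Cfp1−/− cells. The sum was thus lower in untreated Cfp1−/− cells, opposite to Hist1h4m alone. With doxorubicin it was 232 and 343 in WT and 309 and 313 in Cfp1−/− cells, which overlap.

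Hist1h2an, an H2A gene with 15.4% unique windows, had 144 and 152 normalized counts in untreated WT, 59.0 and 81.3 in treated WT, 330 and 556 in untreated Cfp1−/− and 197 and 150 in treated Cfp1−/− cells. It was higher in Cfp1−/− cells under both conditions, with log2 fold changes of 1.61 (SE 0.29) and 1.33 (SE 0.31). The second lost its call without replicate 1 of treated WT cells (1.11) and without replicate 1 of treated Cfp1−/− cells (1.10). Summed with Hist1h2ah, which shares 252 of its 319 windows, the level was 786 and 985 in untreated WT and 639 and 986 in untreated Cfp1−/− cells, which overlap. With doxorubicin it was 211 and 305 in WT and 299 and 231 in Cfp1−/− cells, which overlap as well. Hist1h4j was the other gene higher with doxorubicin, with a log2 fold change of 0.89 (SE 0.25, adjusted p = 0.0299 in edgeR's quasi-likelihood test). It lost its call without replicate 1 of treated WT cells (0.62), without replicate 1 (1.0) or 2 (0.75) of treated Cfp1−/− cells, and with only the groups compared in the fit (0.87). The pairs were summed, and Hist1h4j, Hist1h4n and Hist1h2ah named, after their values were seen. Such sums do not restore reads that were dropped from both genes of a pair.

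**Figure D3:**
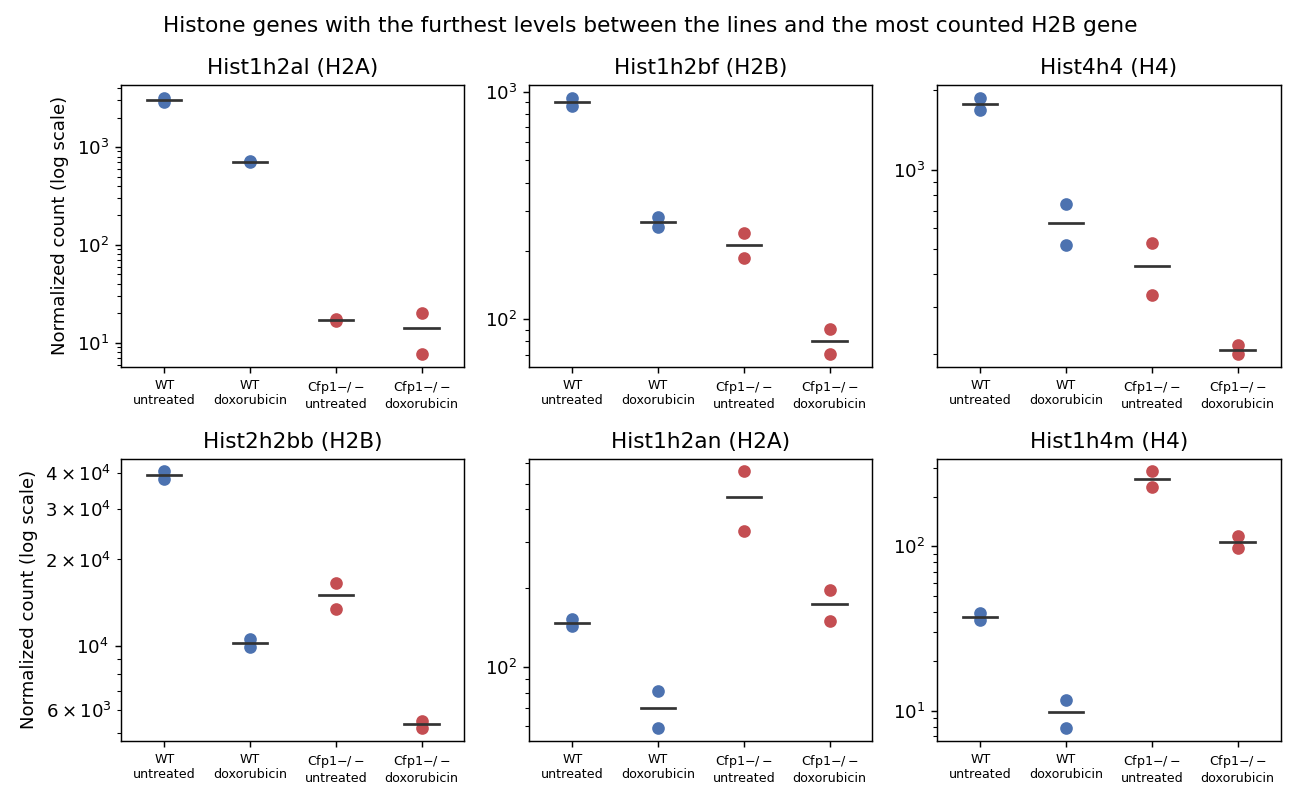
Normalized counts on a log scale (vertical axis) of 6 histone genes in the 4 groups (horizontal axis), with a point for each of 2 biological replicates and a bar at their mean. Hist1h2al lies at 3183 and 2905 in untreated WT and at 16.7 and 17.8 in untreated Cfp1−/− cells, while Hist1h2an and Hist1h4m, with few unique windows, are higher in Cfp1−/− cells.

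Sequence at the end of the transcripts was read from the genome of the tables' build. The stem-loop that closes histone mRNAs was searched by its invariant bases over 16 positions on the sense strand from the stop codon to 100 bases past the annotated end. It was found in 60 of the 67 genes, 21 to 58 bases after the stop codon with a median of 30. By class it was found in 6 of 6 H1, 17 of 19 H2A, 16 of 18 H2B, 9 of 11 H3 and 12 of 13 H4 genes. In Hist2h2bb and Hist2h3c2 the letters lay 451 and 628 bases after the gene start but not after an annotated stop codon, so they were not counted. In Hist2h2bb that place is outside the annotated exons. Other H2B genes had the stem-loop at a similar distance, such as 448 bases in Hist1h2bg and 449 in Hist1h2bc. The 60 thus depends on the annotated stop codons and can be too low. The sequences were of 6 kinds, and 1 gene of each is shown because the kinds differ between H4 and the other classes. Capitals mark the stem-loop, and 5 bases are given on each side.
Hist1h1d: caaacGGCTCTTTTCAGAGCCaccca
Hist1h2bb: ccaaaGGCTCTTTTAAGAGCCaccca
Hist2h2ac: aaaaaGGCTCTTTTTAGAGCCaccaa
Hist1h4d: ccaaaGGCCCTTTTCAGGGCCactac
Hist2h4: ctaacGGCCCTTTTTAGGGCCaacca
Hist1h4b: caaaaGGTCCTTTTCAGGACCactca
On build NCBIM37 the capitals lie at chr13:23647656-23647671 on the plus strand in Hist1h1d, at chr13:23673819-23673834 on the plus strand in Hist1h4d and at chr3:96024341-96024356 on the minus strand in Hist2h2ac. They lie at chr13:23839072-23839087 on the plus strand for Hist1h2bb, at chr3:96066862-96066877 on the minus strand in Hist2h4 and at chr13:23849235-23849250 on the plus strand in Hist1h4b.

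The form of Hist1h1d was in 38 genes, with no H4 gene among them. The form of Hist1h2bb was in 9 genes, also none of them H4, and that of Hist2h2ac in this gene alone. The form of Hist1h4d was in 8 genes, all of class H4, and the forms of Hist2h4 and Hist1h4b were in 2 genes each, all H4. The stem thus separated H4 from the other classes in the 60 genes where it was found. The annotated end of the gene lay over 100 bases past the stem-loop in 19 genes, so counts there can include RNA that extends beyond it.

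Promoters were taken from RefSeq (build GRCm38.p6) as the 250 bases before to 50 bases after each gene start, and 60 of the 67 genes matched. Hist1h2ap, Hist1h3f, Hist1h2bc, Hist1h3a, Hist1h2al, Hist2h2be and Hist2h4 were not matched to a promoter by identifier or synonym. The letters CCAAT, on either strand, were in 51 of the 60, against 37.4% of all 32851 promoters. They were in every H1, H2A, H2B and H3 promoter that matched but in only 3 of 12 H4 promoters. ATTTGCAT, the octamer bound by Pou2f1, was in 13 of the 60 against 1.74% of all promoters, in 7 of 17 H2A and 6 of 16 H2B promoters and in no other class. AAACACA was in 9, against 7.18% of all, and 5 of these were among the 6 H1 promoters. TATAAA was in 35 against 13.6% of all. These matches are descriptions of the letters in the window.

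The promoters of 4 genes named above are shown up to the gene start, because they carry different sets of these letters. Capitals mark the 4 motifs of the paragraph before, read on either strand.
Hist1h1d: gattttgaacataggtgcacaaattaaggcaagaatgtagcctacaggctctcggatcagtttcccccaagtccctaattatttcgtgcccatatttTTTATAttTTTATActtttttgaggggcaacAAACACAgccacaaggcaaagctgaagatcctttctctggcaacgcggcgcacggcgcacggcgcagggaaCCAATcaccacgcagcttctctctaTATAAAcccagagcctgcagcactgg
Hist2h2bb: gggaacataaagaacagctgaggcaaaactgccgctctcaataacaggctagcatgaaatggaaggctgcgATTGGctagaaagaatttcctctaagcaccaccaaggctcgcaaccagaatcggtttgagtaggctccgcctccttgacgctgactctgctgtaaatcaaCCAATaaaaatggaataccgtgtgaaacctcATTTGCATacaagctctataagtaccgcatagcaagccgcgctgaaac
Hist1h4d: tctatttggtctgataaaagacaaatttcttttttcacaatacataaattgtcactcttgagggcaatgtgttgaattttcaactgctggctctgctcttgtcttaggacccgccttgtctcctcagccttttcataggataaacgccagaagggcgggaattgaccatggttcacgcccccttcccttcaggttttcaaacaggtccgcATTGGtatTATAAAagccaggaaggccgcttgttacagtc
Hist4h4: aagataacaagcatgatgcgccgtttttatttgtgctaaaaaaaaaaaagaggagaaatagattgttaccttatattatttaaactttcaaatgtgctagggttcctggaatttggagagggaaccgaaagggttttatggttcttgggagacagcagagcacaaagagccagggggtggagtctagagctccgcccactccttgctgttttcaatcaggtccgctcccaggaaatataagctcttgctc
They lie on GRCm38.p6 at chr13:23554782-23555031 on the plus strand (Hist1h1d), chr3:96269450-96269699 on the plus strand (Hist2h2bb), chr13:23581318-23581567 on the plus strand (Hist1h4d) and chr6:136804432-136804681 on the minus strand (Hist4h4). Hist4h4 has none of the 4 motifs in this stretch, and Hist1h4d has CCAAT and TATAAA.

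Genes that transcribe, process and degrade histone mRNA were counted from a list of 17. In WT cells 11 of 17 fell with doxorubicin and 1 rose (Sympk), where 21.8% of all tested genes fell and 26.5% rose, with a median log2 fold change of -0.48 against 0.06 over all tested genes. In Cfp1−/− cells 10 fell in edgeR's quasi-likelihood test, where 21.0% of all tested genes fell, with a median of -0.40 against 0.01. The 10 called lower in both lines were Npat, Casp8ap2, Pou2f1, Slbp, Zfp473, Cpsf2, Cpsf3, Cstf2, Eri1 and Ncbp1. Npat, a coactivator of histone gene transcription, had 3388 and 3528 normalized counts in untreated WT, 1948 and 1979 in treated WT, 3265 and 2980 in untreated Cfp1−/− and 2009 and 1742 in treated Cfp1−/− cells. Treated cells were lower in both lines, and the treated groups of the lines overlapped. The log2 fold changes of Npat were -0.77 (SE 0.13) and -0.69 (SE 0.13). Slbp, whose protein binds the stem-loop, had 3522 and 3505 normalized counts in untreated WT, 1819 and 2228 in treated WT, 1786 and 2112 in untreated Cfp1−/− and 1162 and 1096 in treated Cfp1−/− cells. Untreated Cfp1−/− cells overlapped treated WT cells. Its log2 fold changes with doxorubicin were -0.75 (SE 0.14) and -0.74 (SE 0.14). Between the lines 8 of the 17 were lower and 1 higher in untreated Cfp1−/− cells, and 6 were lower and 1 higher with doxorubicin. Of all tested genes, 16.1% and 10.8% were lower and 17.9% and 15.1% higher.

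Of 8 histone chaperones, which carry histones to DNA, 3 fell in WT and 5 in Cfp1−/− cells, where 21.8% and 21.0% of all tested genes fell, with medians of -0.42 and -0.45. Nasp, Asf1a and Rbbp7 were called in both lines. Nasp had 37134 and 37194 normalized counts in untreated WT, 17991 and 20006 in treated WT, 23104 and 25036 in untreated Cfp1−/− and 12131 and 11042 in treated Cfp1−/− cells. All groups were apart. With doxorubicin, the log2 fold changes of Nasp were -0.92 (SE 0.13) and -1.01 (SE 0.13). Rbbp7 is among the genes that lost the counts of a run, and without that run its Cfp1−/− response was -0.33 and did not pass edgeR's quasi-likelihood test (SE 0.16, adjusted p = 0.106). Cstf2, also affected, was still lower without the run (-0.94). In both untreated and treated cells 5 of the 8 chaperones were lower in Cfp1−/− than in WT cells, where 16.1% and 10.8% of all tested genes were.

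Of 15 genes that act in S phase, 11 fell and 1 rose in WT and 12 fell and 1 rose in Cfp1−/− cells, where 21.8% and 21.0% of all tested genes fell and 26.5% and 27.8% rose, and with medians of -0.47 and -0.58. Those lower in both lines were Mcm2, Mcm3, Mcm4, Mcm5, Mcm6, Pcna, Rrm1, Ccne1, Ccna2, Cdk2 and Cdt1. Ccne1, for cyclin E1, had log2 fold changes of -1.52 (SE 0.15) in WT and -1.22 (SE 0.15) in Cfp1−/− cells. Rrm2, which encodes a subunit of ribonucleotide reductase, had 4295 and 5499 normalized counts in untreated and 7300 and 6924 in treated WT cells, and 2524 and 2098 in untreated and 4019 and 3091 in treated Cfp1−/− cells. Its treated libraries were higher in both lines, with log2 fold changes of 0.58 (SE 0.18) and 0.66 (SE 0.18). In both untreated and treated cells 9 of the 15 were lower in Cfp1−/− cells, against the same 16.1% and 10.8% of all tested genes. Cell cycle phase was not measured, and its part in the lower histone levels was not tested.

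All 6 ES cell markers fell with doxorubicin in both lines, where 21.8% and 21.0% of all tested genes fell, with medians of -1.51 in WT and -1.92 in Cfp1−/− cells. Between the untreated lines Pou5f1 and Zfp42 were lower and Nanog higher in Cfp1−/− cells, and with doxorubicin Pou5f1 was lower and Nanog higher. Of all tested genes, 16.1% were lower and 17.9% higher without doxorubicin, and 10.8% and 15.1% with it. Pou5f1 had 16753 and 13807 normalized counts in untreated WT and 9207 and 9918 in untreated Cfp1−/− cells. Markers of fibroblasts, which could serve as feeders, summed to at most 511 normalized counts in a replicate, and 2 of 5 (Col1a1 and Thy1) rose in both lines, where 26.5% and 27.8% of all tested genes rose. Between the lines 3 of the 5 (Col1a1, Col1a2 and Col3a1) were lower in untreated and 1 (Col3a1) in treated Cfp1−/− cells, where 16.1% and 10.8% of all tested genes were lower. Markers of primitive endoderm summed to at most 95, and 2 of 4 (Gata4 and Sox17) rose in Cfp1−/− cells, where 27.8% of all tested genes rose. These calls rest on 6 and 7 against 19 and 19 raw counts for Gata4 and 7 and 2 against 24 and 12 for Sox17. Sox7 (log2 fold change -1.54) and Gata6 (0.27) did not pass edgeR's quasi-likelihood test there, and in WT cells 0 of the 4 changed.

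Several limits apply to these values. Each group has 2 biological replicates, each genotype 1 line, and treatment 1 time point. Counts are relative to the other RNA of a library, so a change in total RNA per cell would not be seen. Reads shared by near-identical genes make levels of the 27 genes with under 50% unique windows uncertain. The second technical replicates of 2 treated libraries were not like the first. Intervals and floors cover counting error alone. Protein levels, DNA synthesis and the rate of transcript decay were not measured.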

How the data were processed

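RNA of 8 biological replicates in 4 groups, each sequenced in 2 technical runs (16 samples), was depleted of ribosomal RNA and sequenced as paired-end 75-base reads. The authors aligned reads to build NCBIM37 with STAR and deposited raw counts per gene and technical replicate from HTSeq-count. The authors also deposited a normalized signal per biological replicate, in which DESeq size factors scale the summed counts. The processing notes give STAR 2.2.1, and the paper gives a different version.

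Counts were summed over technical replicates and fitted with edgeR 4.0.16 in R 4.3.3 (filterByExpr, TMM, quasi-likelihood F test, Benjamini-Hochberg over 15758 genes, common dispersion 0.0304) with 4 groups and no block. The comparisons were each response to doxorubicin, their difference as an interaction, and the lines without and with doxorubicin. The calls were tested on simulated data. Standard errors (SE) of edgeR values were derived from its test, as the absolute log2 fold change divided by the square root of the F statistic. Shares are percents of all counts with 95% Wilson intervals. A group at 0 was set against a floor of 3 counts per library. Depth per biological replicate is given in the report.

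Whether replicate numbers pair the libraries of different groups was checked from the counts: departures from group means correlated between groups at r from 0.178 to 0.575 over 12332 genes, and a replicate block was among the alternatives. Alternatives were DESeq2 size factors, total count scaling, DESeq2 1.42.0 with its Wald test, no filter on low counts, the block and only the groups compared. Others were first technical replicates alone, the Cfp1−/− second run left out, each biological replicate left out and other limits. Further ones were only genes with at least 50% unique windows, and shares without the 100 most counted genes. Leaving out the second runs of both affected libraries was chosen after seeing the data.

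Named genes follow a rule: the highest of each class per kb of exon, the 5 lowest and 5 highest in each response, the 3 lowest and highest between lines, the 3 smallest p of the response difference, those of the Hist2, Hist3 and Hist4 families, lone genes, the germ cell variants, and from the other lists those called in both responses. The lists were histone mRNA factors, chaperones, S phase genes and markers of ES cells, fibroblasts, primitive endoderm and germ cells (Dab2 was not in the tables). Members and lists were chosen with earlier results of these data known. Gene coordinates and stem-loops are on NCBIM37, and promoters are from RefSeq on GRCm38.p6.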

Additional observations from a re-analysis of the deposited data

How the results depend on the processing

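The median response of the histone genes was below 0 in both lines under every alternative run. With each biological replicate left out, most histone genes were called lower in both responses and none was called higher. The share called lower was far above that of all tested genes in each of these fits. The median response of the histone genes ran from -2.0 to -1.53 in WT and from -1.82 to -1.5 in Cfp1−/− cells. The lone library that remains in a group then is assumed to vary like the other groups.

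Total count scaling moved the median of all tested genes to 0.37 and 0.23 in the WT and Cfp1−/− responses and to 0.20 and 0.11 between the lines without and with doxorubicin. Histone medians were then -1.39, -1.41, -0.45 and -0.48, and 22 histone genes were lower between the untreated lines. The H1 and H2B medians in WT cells were -1.77 and -1.39, and that of H2B in Cfp1−/− cells was -1.47. The H1 median was -2.12 with DESeq2 size factors, -2.13 with DESeq2's Wald test and -2.15 without both second runs. DESeq2's Wald test gave 1 gene higher in the response difference. The cause was not tested.

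With each replicate left out, genes lower between the untreated lines numbered 16 to 39, and with doxorubicin 14 to 27 were lower and 2 to 4 higher. The median response difference ran from -0.02 to 0.34, and was -0.02 without WT doxorubicin replicate 1 and without Cfp1−/− untreated replicate 1. The H1 median in WT cells ran from -2.21 to -1.98 and that of H2B from -2.0 to -1.53. In Cfp1−/− cells the response of Hist1h2al ran from -1.13 to 0.29 and that of Hist2h4 from -0.62 to 0.04. The cause was not tested.

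With the replicate block as pairing, 61 and 60 genes were lower in the responses, 41 between the untreated and 32 between the treated lines. Genes called lower rose over all tested genes too, to 26.1% and 25.9% in the responses and to 21.3% and 16.2% between the lines. Among named genes the block changed the calls of Hist1h2aa and Hist1h2ba in both responses, Hist2h3c2 in WT and Hist3h2a in Cfp1−/− cells, and no other call.

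Without the 100 most counted genes in the total, the histone share was 0.788% in untreated and 0.291% in treated WT and 0.501% and 0.197% in Cfp1−/− cells. Of the values of named genes under the alternatives, 1015 kept direction and side of the threshold, 25 newly passed it, 42 no longer did and 2 reversed. Depth limits genes with few counts, such as Hist1h2bq.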
